A study of Mus musculus with 48 samples.

Results

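Schlafen genes were followed in mouse macrophages of 8 populations, each with the compound AP-3-84 or its vehicle. The 7 members described are Slfn1, Slfn2, Slfn3, Slfn4, Slfn5, Slfn8 and Slfn9, out of 51789 genes in the count table. They are the rows that carry these 7 symbols. The family was picked from measured values, because Slfn4 had a large fall in ascites macrophages after AP-3-84. The response of the members in ascites macrophages, its difference from that in the other peritoneal population, and the ascites level of Slfn4 are therefore given as description, with no test. All 7 members passed the filter on low counts in both fits.

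Schlafen proteins are named after the German word for sleep, since the founding member slowed the growth of thymocytes when it was overexpressed. Mouse members fall into a short class (Slfn1 and Slfn2), an intermediate class (Slfn3 and Slfn4) and a long class with a helicase-like domain (Slfn5, Slfn8 and Slfn9). Many of them are induced by type I interferon or by bacterial products. In macrophages and other myeloid cells they are known as interferon-stimulated genes, which act downstream of the receptor IFNAR.

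Each of the 16 groups held 3 libraries. All cells received 10 µM AP-3-84, which the labels do not describe further, or DMSO for 4 h. Ascites macrophages were F4/80+ cells, sorted with magnetic beads from peritoneal washes taken 45 days after injection of ID8 ovarian tumour cells, and the genotype label of these mice is B6(Cg)-Tyrc-2J/J. Thio macrophages were F4/80+ cells sorted in the same manner from wild-type C57BL/6 mice, 4 days after 1 ml of 3% thioglycolate. The remaining 6 populations came from bone marrow of WT or p53 KO mice and matured for 6 days with M-CSF at 10 ng/mL. Those named M0 received nothing more, M1 cells then had LPS (100 ng/mL) plus IFN-γ (50 ng/mL) for 24 h, and M2 cells had IL-4 plus IL-13 (10 ng/mL of each) for the same time. The sources used here do not give ages, the number of animals behind a group, any pooling or the p53 allele. In the genotype field all libraries from bone marrow are wild-type C57BL/6. Their titles and descriptions, and the text on the design, part WT from KO, and the groups here follow these. The labels do not say that replicates came from separate animals or cultures, so p-values measure only the spread between these samples.

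The 7 members lie side by side on mouse chromosome 11, within 263.8 kb (GENCODE M21, GRCm38). In order they are Slfn5 (chr11:82951349-82964840, + strand), Slfn9 (chr11:82978390-82991830, − strand), Slfn8 (chr11:83002158-83020810, − strand), Slfn2 (chr11:83065112-83070678, + strand), Slfn1 (chr11:83116849-83122670, + strand), Slfn4 (chr11:83175186-83190216, + strand) and Slfn3 (chr11:83191330-83215154, + strand). Trp53, the gene of p53, is on the same chromosome at a distance of 13.4 Mb. RefSeq promoter windows (GRCm38.p6, 250 bases before to 50 after each start) were found for all 7 members, in 8 windows. They were searched on both strands for the core of the interferon-stimulated response element, which is GAAA, any 2 bases and GAAA again and was present in 3.45% of 32544 windows of the same length. The 3 long members each held 1 match, and the windows of Slfn1, Slfn2, Slfn3 and Slfn4 held none. The gamma-activated site TTCNNNGAA, present in 8.33% of windows, matched in none of the 8, and neither motif says whether a factor binds. The motif letters are the same in Slfn9 and Slfn8, while Slfn5 meets the pattern with other letters. The 3 matching stretches are each printed 5′ to 3′ on the strand of the gene. The motif is in capitals and reads as its reverse complement in Slfn9 and Slfn8:
Slfn5: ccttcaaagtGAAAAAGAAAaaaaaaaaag
Slfn9: atccgagcagTTTCGTTTTCccaaaaacaa
Slfn8: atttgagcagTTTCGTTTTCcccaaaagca
They lie at chr11:82951937-82951966 on the + strand for Slfn5, chr11:82991856-82991885 on the − strand for Slfn9 and chr11:83020839-83020868 on the − strand for Slfn8. The Slfn5 match lies inside the GENCODE span of that gene given above. Counted from the RefSeq start, the motif began at -155 in Slfn5 and at -45 in Slfn9. In Slfn8 it began at -48 or -136, depending on which of its 2 starts is used.

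Sequence shared between neighbours limits how far reads can be assigned. Shared stretches of 30 bases are given as a percentage of those in the gene that has fewer. For Slfn8 with Slfn9 this was 19.8%, and 17.1% within the last 500 bases, where reads of a 3′ library fall. For Slfn8 with the pseudogene Slfn10-ps it was 22.3%, and 14.2% at the 3′ end. For Slfn9 with Slfn10-ps it was 24.5%, and 0.6% at the 3′ end. Separate values of Slfn8 and Slfn9 are therefore uncertain. Slfn3 and Slfn4 shared 15.7% over the whole transcript and 0% at the 3′ end. For Slfn2 with Slfn4 it was 7.2% and 0%. Slfn2 and Slfn3 shared 3.1% over the whole transcript and 3.6% at the 3′ end, and Slfn2 was by far the more abundant in every group. How reads were divided between them was not tested, so the low values of Slfn3 are uncertain too.

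The 12 peritoneal libraries held 15532373 to 19417581 counts each, and those from bone marrow, 36 in number, 3081707 to 4645148. The 2 sets were fitted apart and are not compared with each other. Levels are CPM, the counts of a gene relative to the TMM-scaled total of its library, and a gene is called at an adjusted p under 0.05 in edgeR's quasi-likelihood test. Trp53 reads remained in KO libraries (4.34 CPM in KO_M0 against 11.1 in WT_M0 with vehicle, log2 difference -1.34, adjusted p = 0.0102), and it was not called in M1 or M2. Which part of the gene is deleted is not given, so 3′ reads alone do not check the genotype. The p53 target Cdkn1a, a cell cycle inhibitor, was lower in KO than in WT with vehicle in all 3 states, with log2 differences of -4.58, -1.54 and -3.21 in M0, M1 and M2. All 8 macrophage markers were detected in every group, with summed levels from 6030 to 49100 CPM. Sums of T, NK and B cell markers reached at most 7.08, 1.39 and 33.3 CPM. Some libraries stood apart in 9 neutrophil markers, all detected in the groups concerned. Their sum was 3820 CPM in WT_M2 vehicle replicate 1 against 559 and 428 in replicates 2 and 3. It was 3130 in KO_M2 vehicle replicate 3 against 328 and 603, and 3510 in KO_M1 AP-3-84 replicate 1 against 765 and 706. KO_M2 vehicle replicate 3 also had the lowest macrophage marker sum, 6030 CPM, in a group that was low as a whole (18700, 9520 and 6030 CPM). Macrophage sums with vehicle were 16400 to 25600 CPM in KO_M1 and 33400 to 40400 CPM in KO_M0. In WT they were 30400 to 38900 CPM in M0, 43900 to 47000 in M1 and 25300 to 31500 in M2. Neutrophil sums with vehicle were 973 to 2430 CPM in KO_M1 and 547 to 673 CPM in KO_M0. In KO_M0 with AP-3-84, replicate 2 had a macrophage marker sum of 18800 CPM against 40200 and 30000. Called member values and list counts that rest on the single libraries that stood apart are given with and without them. Leaving out 1 library does not address differences between whole groups. The part of those in the polarization and genotype differences was not tested.

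Ascites macrophages held more Schlafen RNA than thio macrophages for every member. With vehicle, all 6 members that could be tested rose, where 33.7% of all 16955 genes were called in either direction. The short-class gene Slfn1 was the most unequal, at 374, 392 and 399 CPM in ascites and 6.07, 3.46 and 2.22 CPM in thio macrophages. That is a log2 difference of 6.65 ± 0.34 (SE, n = 3 per group, adjusted p = 3.57e-07). Slfn2, the other short member, known for keeping T cells quiescent, stood at 668, 670 and 591 CPM in ascites and 164, 164 and 176 CPM in thio macrophages. Its log2 difference was 1.94 ± 0.0841 (SE, adjusted p = 5.91e-12). For both genes the groups were far from overlapping.

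Slfn4, an intermediate member known from myeloid cells, was at 309, 338 and 297 CPM in ascites and 7.02, 5.83 and 5.59 CPM in thio macrophages, a log2 difference of 5.68 given as description. Slfn3, its neighbour on the chromosome, was a low gene in both, with 12.0, 11.1 and 9.06 CPM against 4.53, 6.68 and 5.48 CPM (log2 difference 0.95 ± 0.182, SE, adjusted p = 0.000471). Here too no ascites library was as low as any thio library.

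The long members were also higher in ascites macrophages. Slfn5 had 667, 681 and 597 CPM against 268, 275 and 282 CPM (log2 difference 1.24 ± 0.0591, SE, adjusted p = 2.12e-11). Slfn8 had 202, 206 and 201 CPM against 43.6, 41.5 and 39.1 CPM (2.29 ± 0.0791, adjusted p = 3.16e-13). Slfn9 had 44.8, 47.1 and 40.6 CPM against 15.8, 14.5 and 19.9 CPM (1.40 ± 0.122, adjusted p = 6.38e-08). The size of the difference thus ran from 1.93-fold in Slfn3 to 101-fold in Slfn1.

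Other interferon-stimulated genes moved with the members. A list of 29 such genes, chosen with earlier results of these data known, contains no Schlafen gene. All 29 were higher in ascites macrophages, with a median log2 difference of 4.10 against 0.05 over all genes tested. Their summed level was 6870 to 7300 CPM in ascites and 533 to 551 CPM in thio macrophages with vehicle. Isg15, a ubiquitin-like interferon target, rose by 3.78 and Irf7, a regulator of interferon production, by 5.71 on the log2 scale. Of 16 genes of interferon signalling, 15 were tested, 11 rose and 2 fell. Stat2 rose by 2.01 and Irf9, a transcription factor of the interferon response, by 1.37 on the log2 scale. Reads of Ifnb1, which encodes interferon beta, averaged 0.0181 CPM in ascites and 0 in thio vehicle libraries. Of 58 genes within 500 kb of the cluster, 25 were tested, 11 were higher in ascites and 0 lower. Epithelial markers summed to 184 to 218 CPM in ascites and 4.67 to 6.13 CPM in thio vehicle libraries, and all 7 were detected in ascites. The part of such cells in the differences was not tested. Tumour, days since injection and strain label differ together between the populations and cannot be told apart. In bulk RNA, fewer cells of a type and less RNA per cell cannot be told apart either.

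**Figure D1:**
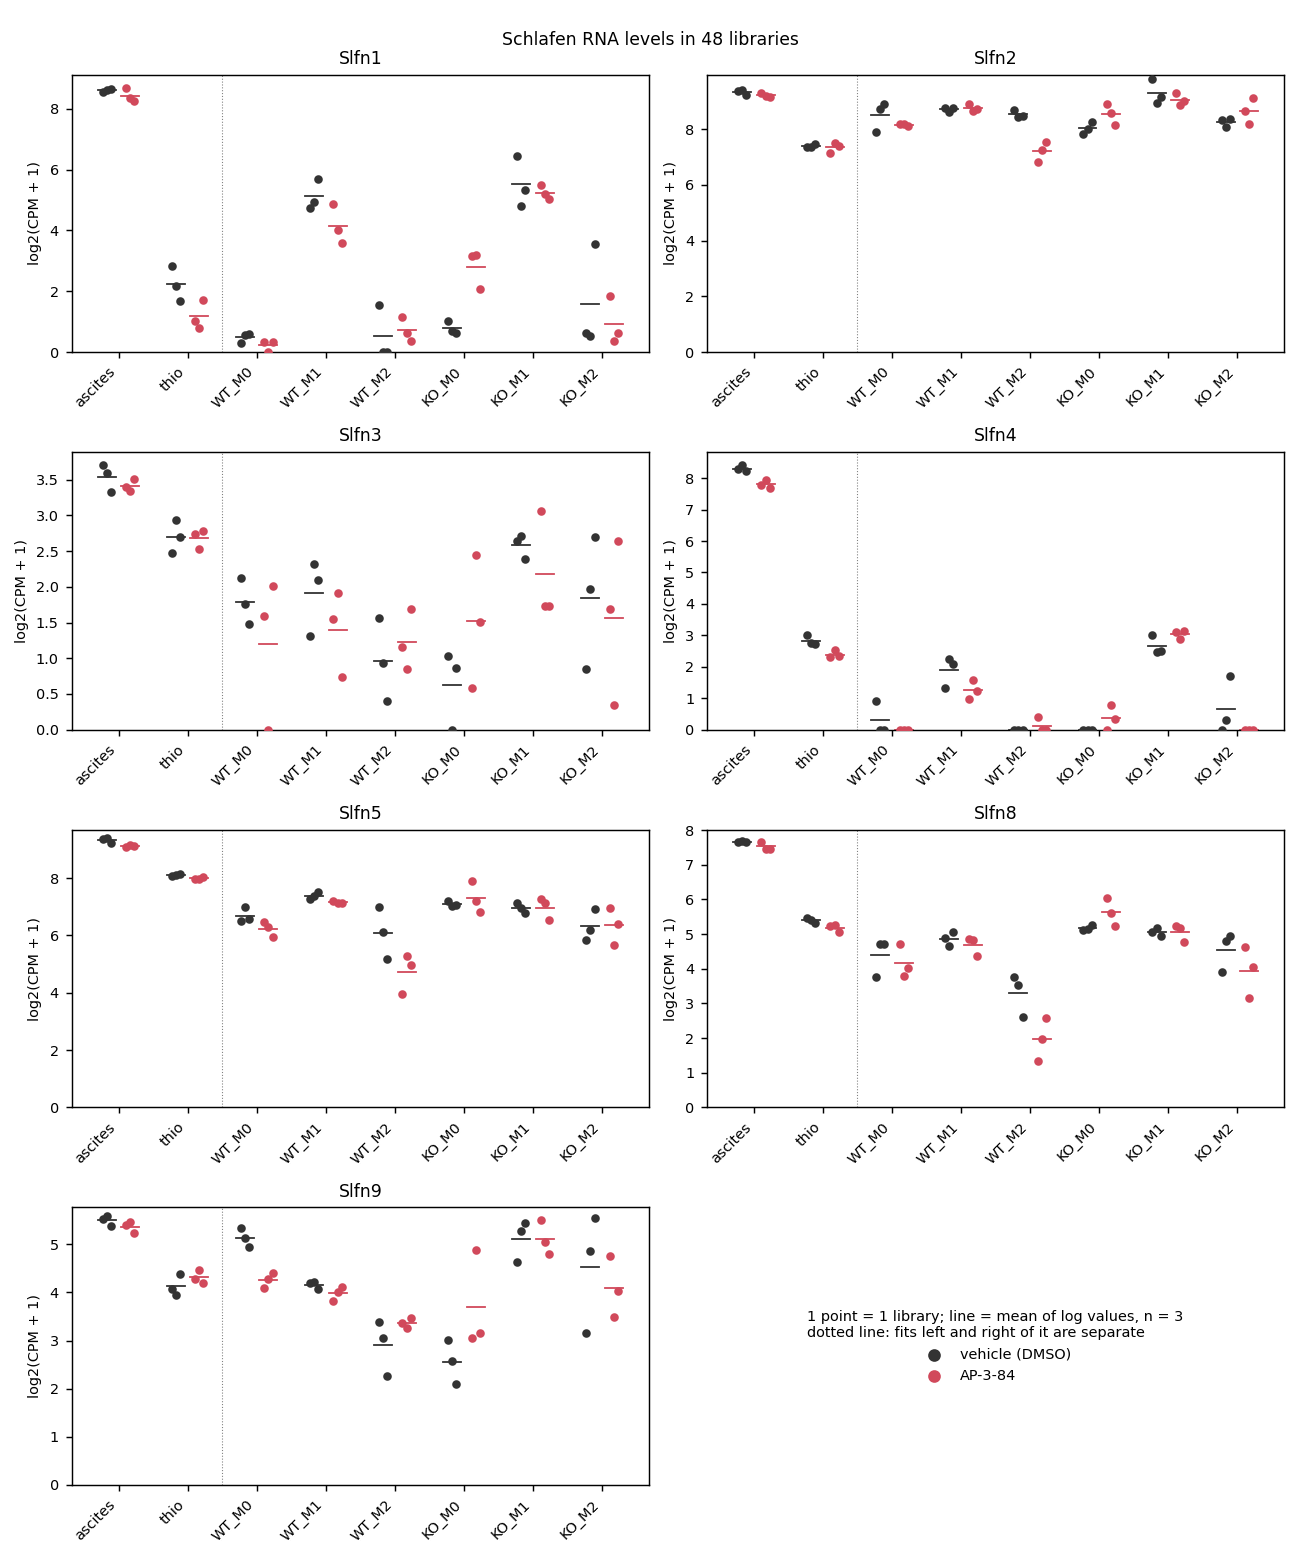
Level of each member in the 48 libraries, on a log2(CPM + 1) axis of its own, by population; black points are vehicle and red points AP-3-84 libraries, short lines are the means of the log values of 3 libraries, and the dotted line parts the 2 fits, which are not compared. In all 7 panels the ascites libraries lie above the thio libraries, and the Slfn1 and Slfn4 panels rise in M1 among the bone marrow-derived populations.

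Polarization to M1 with LPS and IFN-γ raised Slfn1 and Slfn4 in both genotypes. In WT macrophages 2 of 7 members were called against M0, where 15.5% of 11779 genes were. Slfn1 was near its floor in WT_M0 (0.224, 0.478 and 0.511 CPM, 5 counts in all) and at 25.9, 29.7 and 50.9 CPM in WT_M1. Its log2 difference was 6.36 ± 0.924 (SE, n = 3, adjusted p = 2.85e-05). Slfn4 had 1.49, 3.71 and 3.27 CPM in WT_M1, and in WT_M0 0.897 CPM in replicate 1 and 0 in the other 2 libraries. That difference of 3.05 ± 0.981 rests on 32 and 4 counts (adjusted p = 0.0351), and it was not called in 4 of the 6 fits that left out 1 library (adjusted p up to 0.143). Slfn5 and Slfn9 were not called, with log2 differences of 0.69 (adjusted p = 0.206) and -1.03 (adjusted p = 0.114).

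In p53 KO cells 5 of 7 members rose with M1, against a background of 44.5% of genes called in either direction. Slfn1 went from 1.05, 0.616 and 0.541 CPM in KO_M0 to 85.7, 26.8 and 39.1 CPM in KO_M1, a log2 difference of 6.02 ± 0.86 (SE, adjusted p = 3.62e-06). Slfn2 went from 226, 258 and 308 CPM to 897, 484 and 562 CPM, with KO_M1 replicate 1 well above the rest (1.30 ± 0.239, adjusted p = 6.19e-05). Neither gene overlapped between the states.

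Slfn4 was at 0 in all 3 KO_M0 libraries and at 7.14, 4.56 and 4.69 CPM in KO_M1. With 3 counts over the group taken as the floor, its 65 counts are at least 19.3-fold higher (adjusted p = 0.000182). Slfn3 rose from 1.05, 0 and 0.811 CPM to 5.22, 5.57 and 4.24 CPM (log2 difference 2.90, adjusted p = 0.0119), and was at an adjusted p of 0.0571 without KO_M0 vehicle replicate 2. Both intermediate members thus stayed low in CPM while their groups did not overlap.

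Slfn9, of the long class, rose in KO cells from 7.08, 4.93 and 3.25 CPM to 23.6, 37.5 and 42.4 CPM (log2 difference 2.75 ± 0.496, adjusted p = 5.71e-05). Slfn5 and Slfn8 had values of -0.14 (adjusted p = 0.778) and -0.11 (adjusted p = 0.813). The list of 29 interferon-stimulated genes had 22 higher and 0 lower in WT M1, and 28 higher and 0 lower in KO M1, with medians of 1.84 and 2.28 on the log2 scale. Medians over all genes were 0 and -0.01. The M1 markers Nos2 and Il1b, an enzyme that makes nitric oxide and a cytokine, were higher than in M0 in both genotypes.

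Polarization to M2 with IL-4 and IL-13 moved Slfn9 in both genotypes, down in WT and up in KO cells. In WT macrophages 2 of 7 members fell, where 23.4% of genes were called. Slfn9 had 39.5, 33.9 and 29.9 CPM in WT_M0 and 9.46, 7.24 and 3.80 CPM in WT_M2, a log2 difference of -2.32 ± 0.48 (SE, adjusted p = 0.000729). It was -2.64 (adjusted p = 0.00163) without WT_M2 vehicle replicate 1, the library rich in neutrophil markers. Slfn8 went from 12.6, 25.3 and 25.3 CPM to 12.5, 10.6 and 5.07 CPM, where the highest M2 library nearly reached the lowest M0 library. Its log2 difference was -1.15 ± 0.363 (adjusted p = 0.0203), and -1.43 (adjusted p = 0.0159) without WT_M2 vehicle replicate 1. It was not called without 3 other libraries in turn, with -0.86 (adjusted p = 0.13) without WT_M2 vehicle replicate 3.

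In KO cells 2 of 7 members rose with M2, where 38% of genes were called. Slfn9 was at 7.96, 27.9 and 45.6 CPM in KO_M2 and at 7.08, 4.93 and 3.25 CPM in KO_M0, so that KO_M2 replicate 1 lay just above the M0 libraries (log2 difference 2.41 ± 0.497, adjusted p = 0.000369). Without KO_M2 vehicle replicate 3 the value was 1.83 (adjusted p = 0.00658). Slfn4 had 0, 0.225 and 2.23 CPM in KO_M2 against 0 in every KO_M0 library, 10 counts against 0. That is at least 2.93-fold higher against the floor (adjusted p = 0.0365), and 9 of the 10 counts came from replicate 3. The adjusted p was 0.394 without that library.

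Slfn1 showed the same dependence on KO_M2 vehicle replicate 3. It was at 0.531, 0.451 and 10.7 CPM in KO_M2, and its log2 difference from KO_M0 was 2.33 (adjusted p = 0.0746), or -0.57 (adjusted p = 0.766) without that library. The same library had 3570 CPM of summed interferon-stimulated genes, against 789 and 1570 in replicates 1 and 2. Of the 29 genes, 14 were higher and 0 lower in KO_M2 than in KO_M0, and 1 was higher and 1 lower in WT. Without KO_M2 vehicle replicate 3 the KO counts were 2 higher and 1 lower, and without WT_M2 vehicle replicate 1 the WT counts were 1 higher and 8 lower. Their part, and that of the neutrophil markers, in the Schlafen values of this library was not tested. The M2 markers Arg1 and Retnla, an arginase and a secreted alternative-activation protein, were higher than in M0 in both genotypes.

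Between genotypes, Slfn9 differed in opposite directions in M0 and in M2. In M0 it was lower in KO cells, at 7.08, 4.93 and 3.25 CPM against 39.5, 33.9 and 29.9 CPM in WT (log2 difference -2.75 ± 0.496, SE, n = 3, adjusted p = 0.00013). It was the single member of 7 called there, where 33.2% of genes were. In M2 it was higher in KO cells, at 7.96, 27.9 and 45.6 CPM against 9.46, 7.24 and 3.80 CPM, although KO replicate 1 lay within the WT range (1.98 ± 0.482, adjusted p = 0.0185). That call was lost without KO_M2 vehicle replicate 3, at 1.39 (adjusted p = 0.198), without KO_M2 vehicle replicate 2 (adjusted p = 0.0609) and without WT_M2 vehicle replicate 3 (adjusted p = 0.0991), as well as in a fit of only the libraries compared (adjusted p = 0.294). Without WT_M2 vehicle replicate 1 it was 2.28 (adjusted p = 0.0376).

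Slfn8 was also higher in KO_M2, at 14.1, 26.8 and 29.8 CPM against 12.5, 10.6 and 5.07 CPM (log2 difference 1.32 ± 0.362, adjusted p = 0.0348). The call was lost in 4 of the 6 fits that left out 1 library, with values from 1.01 to 1.39 and adjusted p from 0.0648 to 0.198 (without WT_M2 vehicle replicates 2 or 3, or KO_M2 vehicle replicates 2 or 3). It was also lost in a fit of only the libraries compared (adjusted p = 0.268). Without WT_M2 vehicle replicate 1 it was 1.57 (adjusted p = 0.0448). The 2 calls of 7 in M2 stand beside 3.56% of genes called. The 29 interferon-stimulated genes all had positive values in this comparison, with a median of 1.04 against 0.01 over all genes, and 1 of them was called. Without KO_M2 vehicle replicate 3 the median was 0.29, with 18 of 29 positive and 1 called, and without WT_M2 vehicle replicate 1 it was 2.05 with 6 called.

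In M1, edgeR called 0 of 7 members between KO and WT, where 11.6% of genes were called. DESeq2 called 0 as well. In edgeR 3272 of all 11779 genes had an unadjusted p under 0.05, and so did 2 members, Slfn2 and Slfn9. Their log2 differences were 0.63 (adjusted p = 0.0748) and 1.03 (adjusted p = 0.118). Among the 58 neighbours of the cluster 21 were tested. Of these, 0 were higher and 3 lower in KO_M0, 1 higher and 0 lower in KO_M1, and 0 higher and 1 lower in KO_M2.

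The difference between the genotypes in the effect of polarization was tested as an interaction. For M1, 2 of 7 members differed, where 20.7% of genes did. Slfn2 had a polarization effect 1.15 ± 0.333 higher in KO than in WT on the log2 scale (adjusted p = 0.0135), and 0.85 (adjusted p = 0.0616) without KO_M1 vehicle replicate 1. Slfn9 had an effect 3.78 ± 0.662 higher (adjusted p = 0.000149). The M0 groups, where KO against WT was -2.75 for Slfn9, enter this value and the M2 value below. In M1 itself KO against WT was 1.03 and not called. For M2, 2 of 7 differed, where 27.1% of genes did. Slfn9 had an effect 4.73 ± 0.692 higher in KO (adjusted p = 1.74e-05), 4.15 (adjusted p = 9.56e-05) without KO_M2 vehicle replicate 3, and 5.04 (adjusted p = 4.11e-05) without WT_M2 vehicle replicate 1. Slfn4 was called too (adjusted p = 0.0276), but it was at 0 in WT_M2 and KO_M0 with vehicle and had 4 and 10 counts in WT_M0 and KO_M2, so its fitted difference is not a size. It was lost without WT_M0 vehicle replicate 1 or without KO_M2 vehicle replicate 3, which hold most of those counts.

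**Figure D2:**
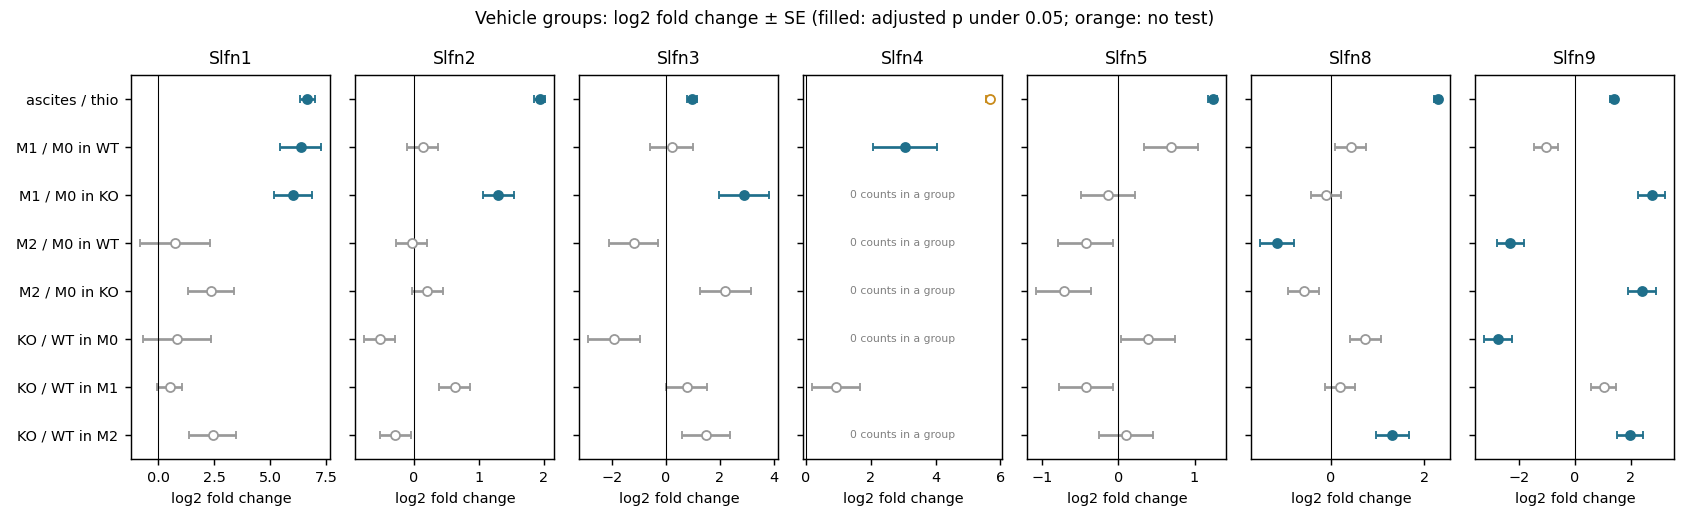
Log2 difference between vehicle groups for each member, with bars of 1 SE and an x scale per panel; filled points have an adjusted p under 0.05, orange points carry no test, and pairs with a group at 0 counts are named and not drawn. Slfn9 lies left of 0 for M2 against M0 in WT (-2.32) and right of it in KO (2.41), and Slfn1 lies beyond 6 for M1 in both genotypes.

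Across the 6 vehicle populations from bone marrow, the order of levels differed between members. For Slfn1 the means were 50.5 CPM in KO_M1 and 35.5 in WT_M1, which overlapped, then 3.88 in KO_M2, which did not overlap with WT_M1, and 0.735, 0.649 and 0.404 in KO_M0, WT_M2 and WT_M0. Slfn2 was highest in KO_M1 (648 CPM), apart from WT_M1 (418), which was followed by WT_M0 (379), WT_M2 (370), KO_M2 (305) and KO_M0 (264). The WT_M0 libraries, from 238 to 475 CPM, overlapped with those of all 4 of these others, while WT_M2 and KO_M2 did not overlap. Slfn3 ran from 5.01 CPM in KO_M1 to 0.62 in KO_M0, and every population overlapped with the next. Slfn4 stood highest in KO_M1 (5.46 CPM), apart from WT_M1 (2.82), and the other 4 were at 0.819 or below.

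Among the long members, Slfn5 was highest in WT_M1 (167 CPM), apart from KO_M0 (136), and the rest overlapped with their neighbours down to WT_M2 (76.7). Slfn8 ran from 35.2 CPM in KO_M0 to 21.1 in WT_M0, each population overlapping with the next, and WT_M2 stood apart at 9.38. The KO_M0 libraries (34.1 to 37.3 CPM) lay above all of WT_M1, KO_M2 and WT_M0 (12.6 to 25.3 CPM). Between KO and WT in M0 Slfn8 was not called (log2 difference 0.74, adjusted p = 0.0826 in edgeR). Slfn9 was at 34.5 CPM in KO_M1, 34.4 in WT_M0, 27.2 in KO_M2 and 16.9 in WT_M1, each overlapping with the next. WT_M2 (6.83) and KO_M0 (5.08) followed, below every WT_M1 library, and WT_M2 overlapped with the wide range of KO_M2 (7.96 to 45.6 CPM). The lowest mean was thus in KO_M0 for Slfn2, Slfn3 and Slfn9, and in WT_M2 for Slfn5 and Slfn8.

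Slfn4 was lower with AP-3-84 than with vehicle in both peritoneal populations. In ascites macrophages, where this value chose the family, Slfn4 went from 309, 338 and 297 CPM with vehicle to 220, 245 and 207 CPM, a 1.40-fold lower mean level (log2 difference -0.49). In thio macrophages it went from 7.02, 5.83 and 5.59 CPM to 3.94, 4.75 and 4.02 CPM, and all treated libraries lay below all vehicle libraries. That difference was -0.53 ± 0.122 (SE, n = 3, adjusted p = 0.0173). Slfn4 was the single member of 7 called in thio macrophages, where 4.32% of genes were. Leaving out thio vehicle replicate 1 gave -0.43 (adjusted p = 0.0947), AP-3-84 replicate 1 gave -0.48 (adjusted p = 0.0734) and AP-3-84 replicate 3 gave -0.50 (adjusted p = 0.0749). In a fit of only the 6 thio libraries Slfn4 was at -0.55 (adjusted p = 0.14), and Slfn1 was called in its place (-1.55, adjusted p = 0.0407). The difference between the ascites and thio responses was 0.04 on the log2 scale, as description.

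The other members had log2 values from -0.22 (Slfn5) to -0.11 (Slfn2) in ascites macrophages, all given as description. Slfn4 was chosen for its fall there, so its larger change follows from the choice. Slfn5 went from 667, 681 and 597 to 547, 566 and 561 CPM, and these groups did not overlap. Slfn1 went from 374, 392 and 399 to 412, 328 and 303 CPM, with overlap. In thio macrophages Slfn1 had 1.03, 0.736 and 2.28 CPM against 6.07, 3.46 and 2.22 with vehicle (-1.51 ± 0.482, adjusted p = 0.152). Slfn8 had 36.9, 37.3 and 32.3 CPM against 43.6, 41.5 and 39.1 CPM, and its -0.22 was not called (adjusted p = 0.151). Of the 29 interferon-stimulated genes 1 rose and 6 fell in thio macrophages, with a median of -0.21 against 0.03. Irf7 fell by 0.70 (log2 difference -0.70) and Rsad2, the antiviral protein viperin, rose by 0.53.

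In unpolarized KO cells the compound raised Slfn1 and Slfn9, 2 of 7 members, where 20.7% of genes were called. Slfn1 had 7.83, 8.14 and 3.18 CPM with AP-3-84 and 1.05, 0.616 and 0.541 CPM with vehicle, from 76 and 8 counts, without overlap. Its log2 difference was 3.05 ± 0.968 (SE, n = 3, adjusted p = 0.0253). The call was lost in 5 of 6 fits that left out 1 library, with values from 2.85 to 3.41 and adjusted p up to 0.105. Slfn9 had 7.33, 28.6 and 7.94 CPM against 7.08, 4.93 and 3.25 CPM, where 2 treated libraries barely exceeded the highest vehicle library. Its difference of 1.52 ± 0.51 (adjusted p = 0.0331) was 0.58 (adjusted p = 0.524) without AP-3-84 replicate 2, the library with the low macrophage marker sum. It was also not called without vehicle replicate 2 (1.5, adjusted p = 0.0875) or 3 (1.28, adjusted p = 0.135), with total counts only (adjusted p = 0.0522) or with only the libraries compared (adjusted p = 0.137).

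The remaining members in KO_M0 were not called. Slfn2 had 482, 377 and 280 CPM against 226, 258 and 308 (0.52, adjusted p = 0.113), and Slfn8 had 65.2, 48.3 and 36.3 against 34.1, 34.2 and 37.3 CPM (0.50, adjusted p = 0.275). Slfn4 had 4 counts with AP-3-84 and 0 with vehicle. In the same comparison 19 of the 29 interferon-stimulated genes rose and 0 fell, with a median of 1.82 against -0.03 over all genes. Without AP-3-84 replicate 2, 10 rose and 0 fell, with a median of 1.46. Their sum was 3210, 3610 and 1610 CPM with AP-3-84 and 957 to 1120 CPM with vehicle. Isg15 rose by 2.67 and Irf7 by 2.37 on the log2 scale.

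In WT M2 cells AP-3-84 lowered Slfn2, the single member of 7 called, where 1.21% of genes were. It went from 408, 347 and 355 CPM to 111, 153 and 184 CPM, so that every treated library was far below every vehicle library. The log2 difference was -1.31 ± 0.241 (SE, n = 3, adjusted p = 0.00287). It was -1.24 (adjusted p = 0.0213) without WT_M2 vehicle replicate 1 and -1.13 (adjusted p = 0.0546) without AP-3-84 replicate 1. Slfn5 had 14.5, 37.8 and 30.6 CPM against 126, 68.8 and 35.5 CPM with vehicle, which overlapped (-1.47 ± 0.38, adjusted p = 0.0509). Without WT_M2 vehicle replicate 1 that value was -0.92 (adjusted p = 0.316). Slfn8 had 1.54, 2.95 and 5.00 CPM against 12.5, 10.6 and 5.07 CPM (-1.55 ± 0.447, adjusted p = 0.0834), and without that library the value was -1.29 (adjusted p = 0.269). DESeq2 called all 3 genes.

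The 29 interferon-stimulated genes had negative values throughout in WT_M2, with a median of -1.24 against 0 over all genes, and 0 were called in edgeR. Without WT_M2 vehicle replicate 1 the median was -0.36, with 4 of 29 positive and 0 called. Their sums were 1820, 785 and 466 CPM with vehicle and 367, 544 and 460 CPM with AP-3-84, so the highest was the vehicle library rich in neutrophil markers. For Slfn2, by contrast, that library (408 CPM) was close to the other 2. Slfn2 in KO_M2 was at 318, 266 and 329 CPM with vehicle and 401, 289 and 551 CPM with AP-3-84 (0.44, adjusted p = 0.447).

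The responses of KO and WT cells were compared as interactions. In M2 the Slfn2 response was 1.75 ± 0.336 higher in KO than in WT on the log2 scale (SE, adjusted p = 0.00547), 1 of 7 members where 1.77% of genes were called. Leaving out any 1 library kept it between 1.49 and 1.98. In M0 the Slfn9 response was 2.44 ± 0.669 higher in KO (adjusted p = 0.0126), 1 of 7 where 17% of genes were called. In WT_M0 it had 16.0, 18.3 and 20.2 CPM with AP-3-84 against 39.5, 33.9 and 29.9 CPM with vehicle, and the -0.92 there was not called (adjusted p = 0.506). Without KO_M0 AP-3-84 replicate 2 the interaction was 1.5 and not called (adjusted p = 0.125).

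In the other 4 populations edgeR called 0 of 7 members after AP-3-84, and DESeq2 called 0 in each. The background was 0.144% of genes in WT_M0, 0.017% in WT_M1, 0% in KO_M1 and 0.0509% in KO_M2. At an unadjusted p under 0.05 the members numbered 1 in WT_M0 (Slfn9), 0 in WT_M1, 0 in KO_M1 and 1 in KO_M2 (Slfn4). Over all 11779 genes there were 1107 at that threshold in WT_M0, 857 in WT_M1, 206 in KO_M1 and 1454 in KO_M2. Slfn1 in WT_M1 was at 28.2, 15.1 and 10.9 CPM with AP-3-84 against 25.9, 29.7 and 50.9 CPM (-0.98 ± 0.589, adjusted p = 0.744). Slfn4 in KO_M2 was at 0 in all treated libraries and had 10 counts with vehicle, at least 2.85-fold lower against the floor of 3 counts over the group, with 2.23 CPM of it in replicate 3.

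Further interactions gave 0 of 7 members in edgeR and 0 in DESeq2. The M1 response of KO against WT had a background of 0.00849% of genes, and 0 members at an unadjusted p under 0.05. In WT cells the responses of M1 and of M2 were compared with that of M0, with backgrounds of 0.0255% and 0.136%. At an unadjusted p under 0.05 there were 0 members for M1 and 2 for M2, namely Slfn2 (-0.90, adjusted p = 0.298) and Slfn8 (-1.32, adjusted p = 0.357). Of all 11779 genes, 831 were at that threshold for the M1 response of KO against WT. For the M1 and M2 responses against M0 in WT they numbered 799 and 1361.

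**Figure D3:**
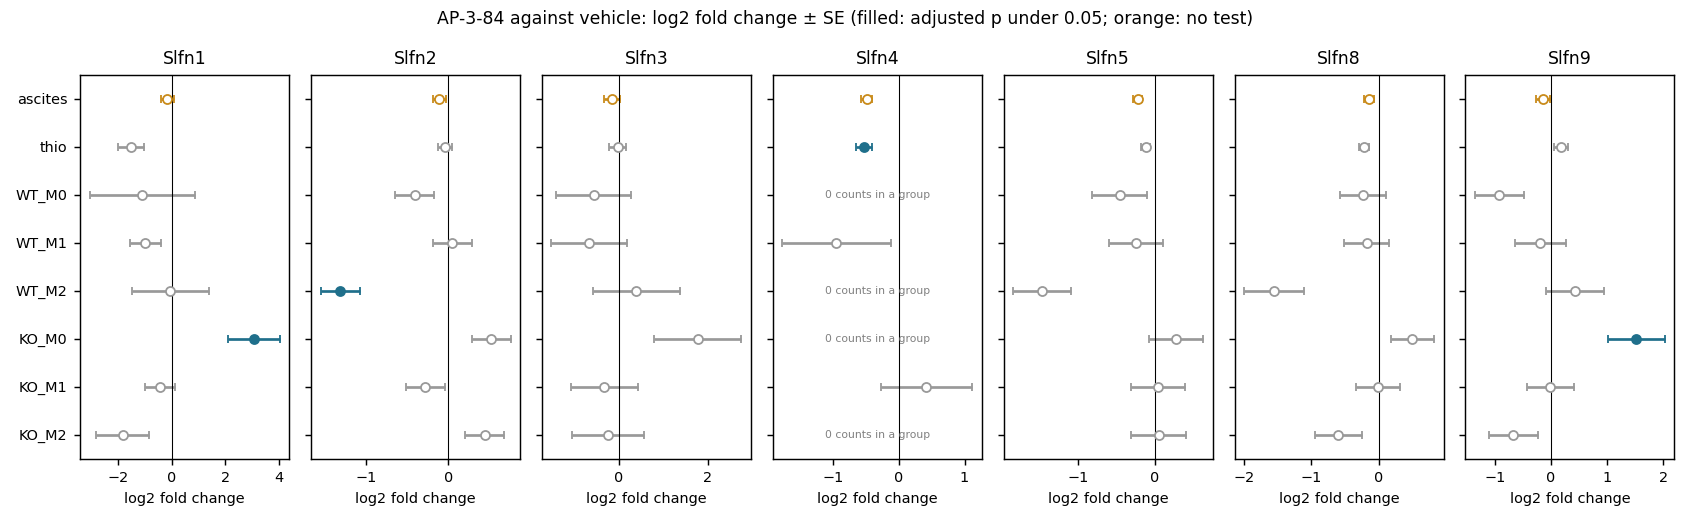
Log2 difference between AP-3-84 and vehicle in the 8 populations for each member, with bars of 1 SE and an x scale per panel; filled points have an adjusted p under 0.05, orange points (ascites) carry no test, and pairs with a group at 0 counts are named and not drawn. Filled points are Slfn4 in thio (-0.53), Slfn2 in WT_M2 (-1.31), and Slfn1 (3.05) and Slfn9 (1.52) in KO_M0.

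The members were not uniform in how they followed other interferon-stimulated genes over the 36 bone marrow-derived libraries, as the plot of member levels against the list sum shows. WT_M1 and KO_M1 vehicle libraries had list sums of 4080 to 6050 CPM and, among vehicle libraries, the highest Slfn1 values, from 25.9 to 85.7 CPM. In the WT_M0 vehicle libraries, with sums from 1090 to 1360 CPM, Slfn9 was as high (29.9 to 39.5 CPM) as in KO_M1 (23.6 to 42.4 CPM). KO_M0 vehicle libraries, with sums from 957 to 1120 CPM, had 3.25 to 7.08 CPM of Slfn9.

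**Figure D4:**
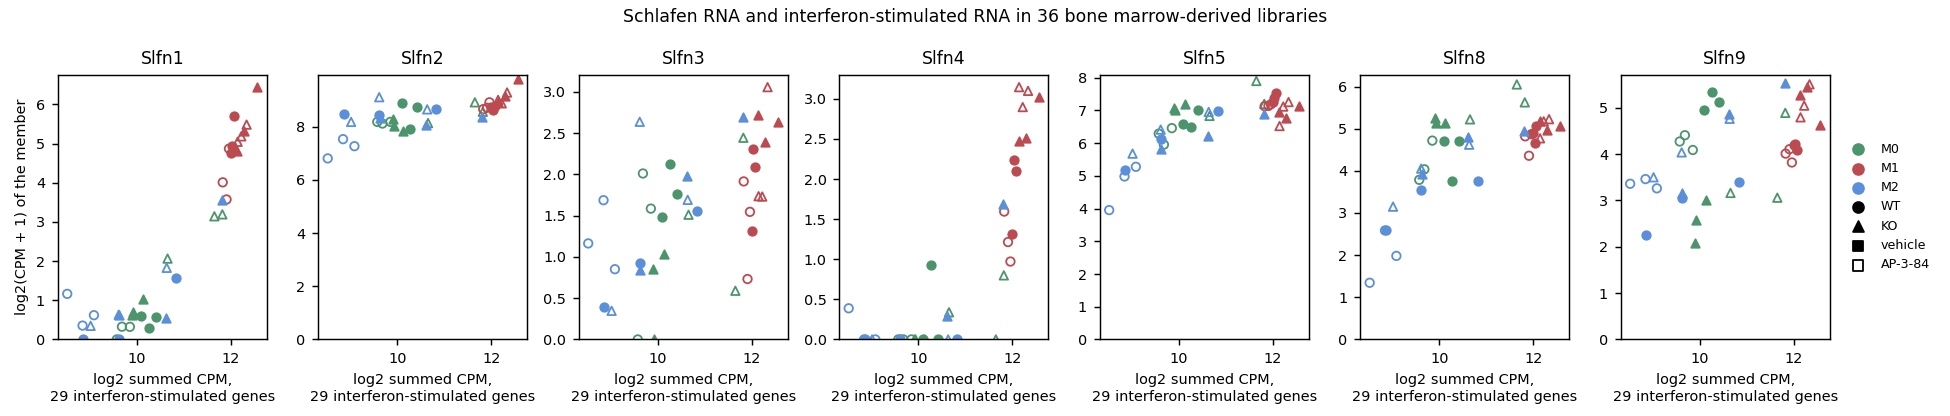
Level of each member, log2(CPM + 1), against the log2 of the summed CPM of 29 interferon-stimulated genes in the 36 bone marrow-derived libraries; colour gives polarization, circles WT and triangles KO, and filled points vehicle and open points AP-3-84. The highest Slfn1 values are those of M1 libraries, at the right, while Slfn9 in WT_M0 vehicle libraries (29.9 to 39.5 CPM) is as high as in KO_M1 at larger sums.

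Likeness was described by Pearson's r of mean log2 CPM over the 12 bone marrow-derived groups, which share 1 fit and scaling, among 8426 other genes with an average log2 CPM of at least 3. The nearest to Slfn1 were Herc6 (r = 0.981), Ppm1h (0.969) and Ifi44 (0.962). Slfn2 was nearest to Mtdh (0.924), Il1b (0.908) and Gbp7 (0.893), and Slfn3 to Tex30 (0.962), Mitd1 (0.939) and Lyar (0.937). Slfn4 was nearest to Lsm11 (0.964), Med19 (0.959) and Dnajc1 (0.955). Slfn5 was nearest to Dtx3l (0.954), Trim30d (0.924) and Irf9 (0.911), and Slfn8 to Ifi27l2a (0.931), Akap8 (0.923) and Ifi203 (0.922). Slfn9 was nearest to Trmt6 (0.965), E2f8 (0.961) and Atad2 (0.950). With 12 points and this many candidates, values of this size are a description alone. Slfn4 held at most 10 counts in any M0 or M2 group, so its r values mainly set M1 groups against groups near 0. Among the members themselves r was 0.942 for Slfn5 with Slfn8, 0.938 for Slfn1 with Slfn4 and 0.882 for Slfn3 with Slfn9, and 0.226 for Slfn5 with Slfn9 and 0.304 for Slfn8 with Slfn9. The low r of Slfn8 with Slfn9 stands beside the sequence they share.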

How the data were processed

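The members and gene lists were chosen with earlier results of these data known. RNA of 48 libraries was measured by QuantSeq FWD 3′ sequencing, per the labels' protocols. The authors deposited 1 table of raw counts per gene ID and library, and RSEM, Bowtie2 and DESeq2 are named, without role or version, in the submitters' processing notes. The sources used here give no genome build, annotation or use of molecular identifiers. Reads without such identifiers are not independent molecules, so floors (3 counts over a group) cover counting error only. Symbols matched 51596 of 51789 gene IDs. The 12 peritoneal (16955 genes after filterByExpr) and 36 bone marrow-derived libraries (11779 genes) were fitted apart by edgeR 4.0.16 in R 4.3.3 (TMM, robust quasi-likelihood test, 1 mean per group, no block). Calls are two-sided, at a Benjamini-Hochberg adjusted p under 0.05 over all genes. Means, log2 differences and SE are over n = 3 libraries. Of 24 comparisons 8 are interactions. The procedure was tested on simulated data. Alternatives were DESeq2 1.42.0, other scalings, no filter, only the libraries compared, a replicate block and each library left out. Named genes are all members, the 3 genes most like each, and set list genes. Replicate libraries differed by more than sampling noise. In 1 of 16 pairs of groups (M2 against M0 in WT) all 3 same-numbered libraries deviated together (r = 0.208, 0.114 and 0.208). Over the 16 pairs r ran from -0.327 to 0.375, so these values do not settle whether the numbers pair samples. The labels say nothing of it.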

Additional observations from a re-analysis of the deposited data

Results flagged for a closer look

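For 6 combinations of a member and a contrast, the effect differed between KO and WT cells by a test of the difference itself, an interaction term in edgeR with n = 3 libraries per group.

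Slfn9 accounts for 3 of them. All 3 use the same WT_M0 and KO_M0 vehicle libraries, where KO against WT was -2.75 for Slfn9, so they are not 3 separate findings. In M1 itself KO against WT was 1.03 and not called. In M2 it was 1.98, and that call was lost in some fits that left out 1 library. Its response to AP-3-84 in M0 differed with an adjusted p of 0.0126 (log2 difference 2.44 ± 0.669, SE, and 1.5 with an adjusted p of 0.125 without KO_M0 AP-3-84 replicate 2), and 2 of the 3 treated KO_M0 libraries lay within 1 CPM of the highest vehicle library. Its change with M1 polarization differed with an adjusted p of 0.000149 (3.78 ± 0.662) and that with M2 polarization with an adjusted p of 1.74e-05 (4.73 ± 0.692). Slfn9 shares sequence with Slfn8 and Slfn10-ps, and how reads were divided among them was not tested.

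Slfn2 accounts for 2. Its response to AP-3-84 in M2 differed with an adjusted p of 0.00547 (1.75 ± 0.336), and its change with M1 polarization with an adjusted p of 0.0135 (1.15 ± 0.333).

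Slfn4 had a difference in M2 polarization with an adjusted p of 0.0276, from 4 counts in WT_M0, 10 in KO_M2 and 0 in both other groups. In the groups of 3 libraries used here no single library was screened by a test for outliers.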

How the results depend on the processing

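No called member value changed sign under any alternative. Without KO_M2 vehicle replicate 3, values of Slfn1 that were not called changed sign, from 2.33 to -0.57 for M2 in KO, from 2.43 to -0.47 for KO against WT in M2 and from -1.83 to 1.07 for AP-3-84 in KO_M2. Of 30 member calls, 17 were kept in every alternative and 13 were lost in at least 1. Counts of members called that moved by more than 1.5 times, or to or from 0, were as follows, and 7 smaller moves, each from 2 to 3 members, are left out. With DESeq2 they were 2 for AP-3-84 in thio, 3 in WT_M2, 4 for M2 in KO and 2 for the KO against WT difference in the M0 response. With median-ratio size factors the count was 2 for AP-3-84 in WT_M2. With total counts only it was 1 for AP-3-84 in KO_M0 and 2 for KO against WT in M1. Without the filter on low counts it was 1 for AP-3-84 in KO_M2 and 1 in WT_M0, 3 in WT_M2, 5 for M2 in KO, 3 and 2 for KO against WT in M0 and M1, 4 for M1 in WT, 4 for the difference in M1 polarization, 4 and 2 for the differences in the M0 and M2 responses, and 2 for M2 against M0 responses in WT. With only the libraries compared it was 1 for AP-3-84 in KO_M0, 1 in WT_M0, 1 for M2 in KO and 1 in WT, 2, 2 and 0 for KO against WT in M0, M1 and M2, 4 and 1 for the differences in M1 and M2 polarization, and 2 for the difference in the M0 response. With the replicate block it was 1 for M1 in WT (Slfn4 at an adjusted p of 0.0503) and 2 for the difference in the M0 response. No call changed for M2 in WT, where same-numbered libraries deviated together. Leaving out 1 library gave 0 to 3 for AP-3-84 in KO_M0 and in WT_M2, 0 to 1 in thio, 1 to 4 for M2 and 4 to 5 for M1 in KO, 1 to 2 for M1 and for M2 in WT, 1 to 2, 0 to 1 and 0 to 2 for KO against WT in M0, M1 and M2, 1 to 2 and 1 to 3 for the differences in M1 and M2 polarization, and 0 to 2 and 1 to 2 for those in the M0 and M2 responses. The number of all genes called moved as well. Without the filter it went from 6 to 577 for AP-3-84 in KO_M2 and from 142 to 496 in WT_M2. For M2 in KO it went from 4481 to 4183, while the member count rose. With DESeq2 it was 263 for AP-3-84 in WT_M2. With only the libraries compared it went from 17 to 68 for AP-3-84 in WT_M0, and from 419 to 7 for KO against WT in M2. The counts of interferon-stimulated genes without a library that stands apart were added after seeing the data. The cause of these moves was not tested. Fewer libraries enter some of these fits, and more genes enter those without the filter. Depth limits Slfn3 and Slfn4 in bone marrow-derived cells, where groups held at most 92 counts of either.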

Other observations

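Slfn10-ps, a pseudogene inside the cluster that is not among the members, was expressed too. With vehicle it averaged 77.2 CPM in ascites and 50.5 CPM in thio macrophages (log2 difference 0.61, adjusted p = 5.39e-05 in edgeR). It was higher with M1 in KO cells (1.35, adjusted p = 0.00229) and higher in KO than in WT in M1 (1.43, adjusted p = 0.00818). Its M1 effect differed between the genotypes by 1.54 (adjusted p = 0.025). Slfn14, at the end of the cluster, had 20 counts in ascites vehicle libraries and 0 in every bone marrow-derived group.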
